A study of Mus musculus with 6 samples.

Results

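The genes of the cytosolic ribosomal proteins were followed in the kidney cortex of mice without the receptor for the complement fragment C3a. Members were the transcript probes whose gene name on the array was that of a large-subunit protein (Rpl and a number), a small-subunit protein (Rps and a number), a stalk protein (Rplp0, Rplp1 or Rplp2) or Rpsa. Kinase genes of the Rps6k family and names ending in -ps were left out. This gave 84 of the 37032 gene names on the array. Of these, 82 had a probe well above background on all 3 arrays of a genotype and were tested, as were 20437 names in all. The other 2, the paralogues Rpl10l and Rpl39l, had 1 probe each, which was not well above background on any of the 6 arrays.

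The arrays measured RNA from renal cortex of male C57BL/6 mice, 3 labelled C3aR-/- control and 3 labelled WT control. Per the labels' protocols, the study's mice were 8 weeks old at the start, and its control arm ate a chow with 10% of calories from fat and was injected with vehicle in place of streptozotocin. The labels place the end at 20 weeks after induction, also for these control samples. The sources used here do not describe the C3aR-/- allele, and the diabetic arm was not analysed here. No label states that the replicates came from different animals, so the p-values cover only the spread among the 6 samples, which may be technical. All 3 C3aR-/- arrays shared 1 slide and scan and all 3 WT arrays another, so slide and genotype cannot be told apart in any comparison below. The single C3ar1 probe was well above background on 1 of 6 arrays, with signals of 14.6, 18.6 and 11.1 on C3aR-/- arrays and 20.9, 9.2 and 14.1 on WT arrays, so it gave no check of the labels. Some cell type markers also moved with genotype, given here as signal summed over a list in multiples of the array's 75th percentile. Proximal tubule markers (9 of 9 passed, 2 called higher, 0 lower) summed to 829 to 865 in C3aR-/- cortex and 705 to 759 in WT cortex. Collecting duct markers (6 of 6 passed, 3 higher, 1 lower) summed to 60.5 to 67.6 in C3aR-/- cortex and 51.3 to 52.7 in WT cortex. Podocyte markers (5 of 5 passed, 1 higher, 0 lower) summed to 20.9 to 24.2 in C3aR-/- cortex and 16.7 to 20.2 in WT cortex. Endothelial markers (5 of 5 passed, 1 higher, 1 lower) summed to 17.2 to 20.1 in C3aR-/- cortex and 22.0 to 23.3 in WT cortex. The sum of the 7 of 8 B cell and plasma cell markers that passed (Cd79a did not) was 0.885 to 1.03 in C3aR-/- cortex and 3.26 to 4.48 in WT cortex, with 0 of the 7 called higher and 3 called lower. The sums of thick ascending limb, distal convoluted tubule, T cell, macrophage, red blood cell and fibroblast markers overlapped between the genotypes. Of 5 adipocyte markers 1 passed, at 0.125 to 0.153 in C3aR-/- cortex and 0.156 to 0.180 in WT cortex. Over all genes 7.09% were called higher and 7.33% lower. The part of these cell types in the results below was not tested. In bulk tissue fewer cells of a type and less RNA per cell cannot be told apart.

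A ribosome joins a small subunit, which reads the mRNA, and a large subunit, which forms the peptide bond. Each protein is normally present once per ribosome, apart from the stalk proteins, and cells keep the proteins near balance by matched transcription, by translation control of their mRNAs and by breakdown of unassembled proteins. The mRNAs carry a 5′ terminal oligopyrimidine tract (TOP), a run of C and T in the DNA at the start site through which mTOR signalling controls their translation. Kidney tubule cells make much ribosomal protein mRNA, as nearly all cells do.

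The array probes that the calls below rest on are printed first, since a second probe of the same gene often gave another answer. Each is 60 bases long and is written 5′ to 3′ as in the array files, with positions on mouse build mm9. For the Rps25 probes and 2 of the Rps24 probes the first 30 bases are shown. Capitals in the Rpl15 probe mark a run of 32 bases that is also found in probes of 2 other transcript names on the array, so RNA from such near-identical copies cannot be told apart from Rpl15.
Rps25, brighter probe, within chr9:44218120-44218272: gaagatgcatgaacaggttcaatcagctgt
Rps25, dimmer probe, within chr9:44215785-44216074: ttccgacatcttagcgaggctgctgtggtc
Rpl23, brighter probe, within chr11:97639635-97642649: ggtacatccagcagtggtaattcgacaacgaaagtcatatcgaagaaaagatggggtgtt
Rpl23, dimmer probe, chr11:97642713-97642772: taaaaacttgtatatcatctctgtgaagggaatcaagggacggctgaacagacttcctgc
Rps27l, brighter probe, within chr9:66795486-66797176: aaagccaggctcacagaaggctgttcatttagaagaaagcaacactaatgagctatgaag
Rps27l, dimmer probe, within chr9:66793986-66794695: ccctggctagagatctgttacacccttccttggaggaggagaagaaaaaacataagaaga
Rpl11, within chr4:135605902-135606224: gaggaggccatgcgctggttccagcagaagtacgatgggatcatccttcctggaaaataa
Rpl15, brighter probe, chr14:19101657-19101716: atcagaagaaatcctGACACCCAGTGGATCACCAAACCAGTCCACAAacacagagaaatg
Rps24, brightest probe, chr14:25315021-25315080: ttgatgttttgctgtgatgtgcagatttct
Rps24, second probe, within chr14:25312695-25315015: aatgttggtgctggcaaaaagtgagtggag
Rps24, dimmest probe shown, within chr14:25311190-25312666: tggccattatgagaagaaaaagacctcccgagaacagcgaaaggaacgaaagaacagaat

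The ribosomal protein genes differed little between the genotypes. Levels are log2 signals minus the 75th percentile of their array, changes are C3aR-/- minus WT on the log2 scale, and a gene was called when the Benjamini-Hochberg adjusted p of limma over all 20437 genes was under 0.05. By that rule 5 of 82 (6.1%) were called higher in C3aR-/- cortex, none was called lower and 77 were not called. Of all genes 7.09% were called higher, 7.33% lower and 14.4% in either direction, so the share of ribosomal protein genes called higher was near the background. At an unadjusted p under 0.05, 20 members were higher (24.4%) and 0 lower, against 18.1% and 15.3% of all genes. Those counts of members were 11 and 8 after quantile normalisation and 8 and 4 in the authors' deposited log2 table, with no share over all genes worked out. The changes ran between -0.14 for Rpl27 and 0.45 for Rps24, and none reached 2-fold. The 95% interval lay within 0.5 of 0 on either side for 75 members (91.5%), against 58.1% of all genes, 93.4% of mitochondrial ribosomal protein genes and 89.5% of proteasome subunit genes. The median standard error of a change was 0.066 for the members and 0.095 over all genes.

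**Figure D1:**
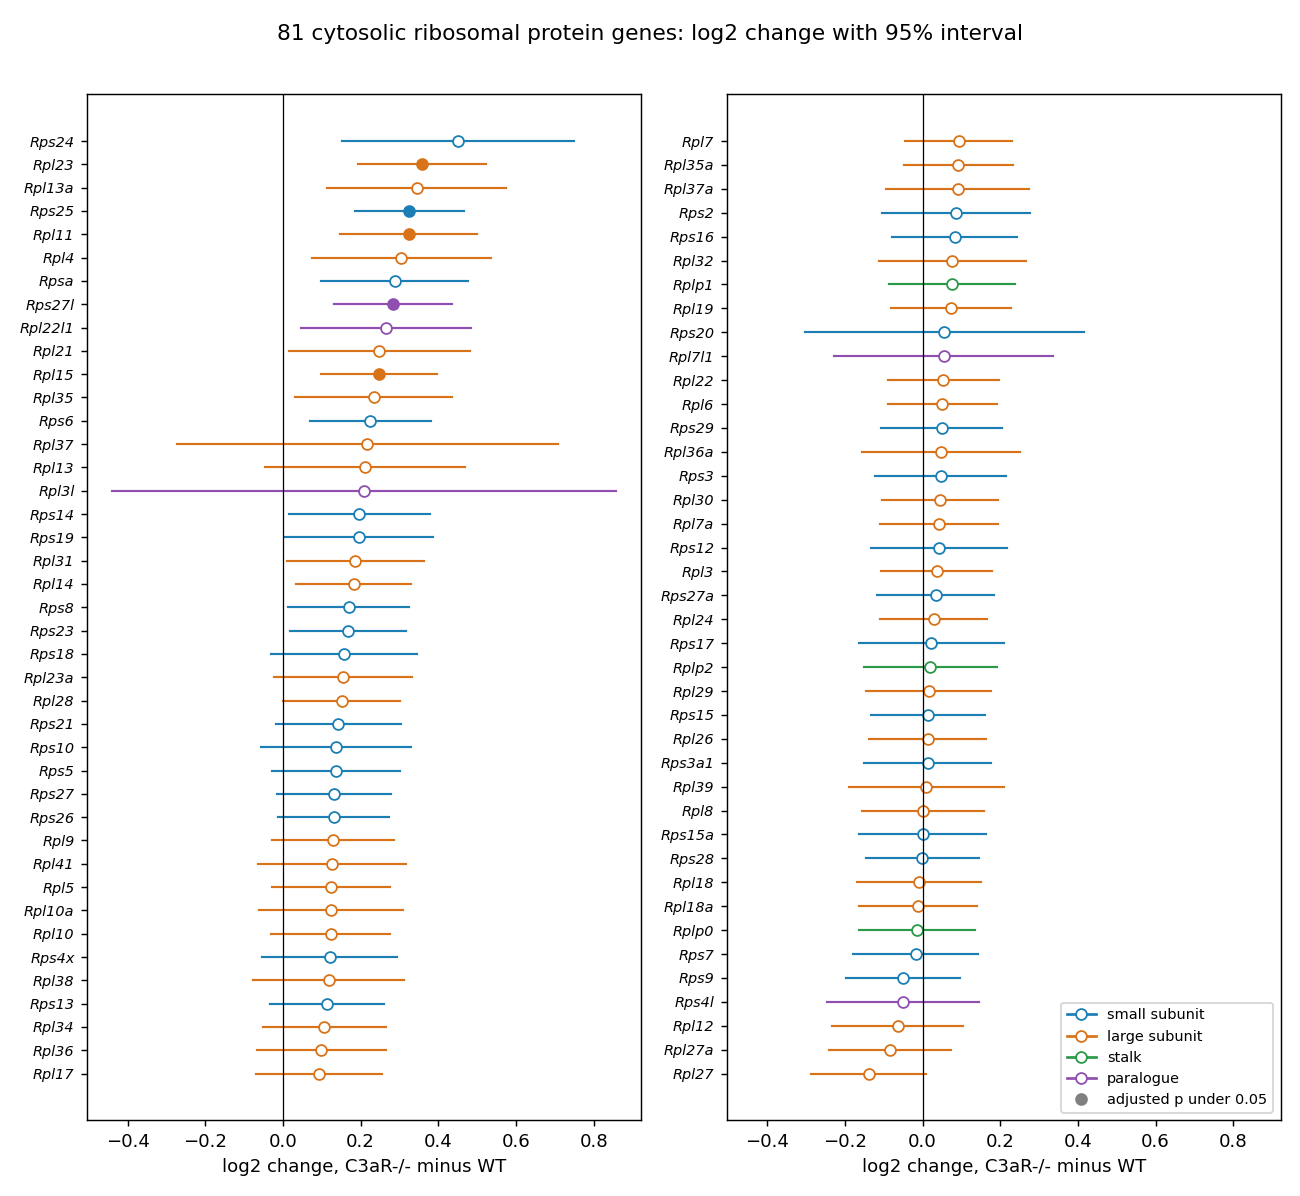
Log2 change (C3aR-/- minus WT, x axis) of 81 of the 82 tested genes, sorted, with its 95% interval and coloured by role. The 5 called genes are filled, and most open points lie within 0.2 of 0.

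The changes leaned one way, by a small amount. Of the 82 members 71 (86.6%) had a positive change, against 52.7% of all genes, and their median change was 0.09, against 0.02 over all genes. The arrays of the genotypes did not overlap for 36 members (43.9%), of which 34 were higher in C3aR-/- cortex (41.5%). Of all genes 41.4% did not overlap, with 22.3% higher in C3aR-/- cortex and 19.1% lower. Other bright probes leaned the same way. The chosen probe lay in the top 5% of signal for 71 of the 82 members. The 951 other genes in that range had a median change of 0.10, 73% of their changes were positive, 8.52% were called higher and 1.26% lower. The 71 members there had a median of 0.09, with 87.3% positive and 7.04% called higher.

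The lean also varied with how the arrays were scaled. The member median was 0.14 with each array's median subtracted, 0.09 after normexp background correction, 0.01 after cyclic loess (an alternative chosen after seeing the data), -0.02 after quantile normalisation and -0.003 in the authors' deposited log2 table. The other bright genes stayed within 0.01 of the members under each of these, at 0.15, 0.10, 0.02, -0.01 and -0.002. The number of members with a positive change was 78, 65, 45, 33 and 39 in the same order. Quantile normalisation gives all arrays the same distribution of values, which the columns of the deposited log2 table also nearly share. Cyclic loess evens out trends with signal between arrays. The small medians of bright genes under these scalings were thus largely set in advance and do not test the lean.

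**Figure D2:**
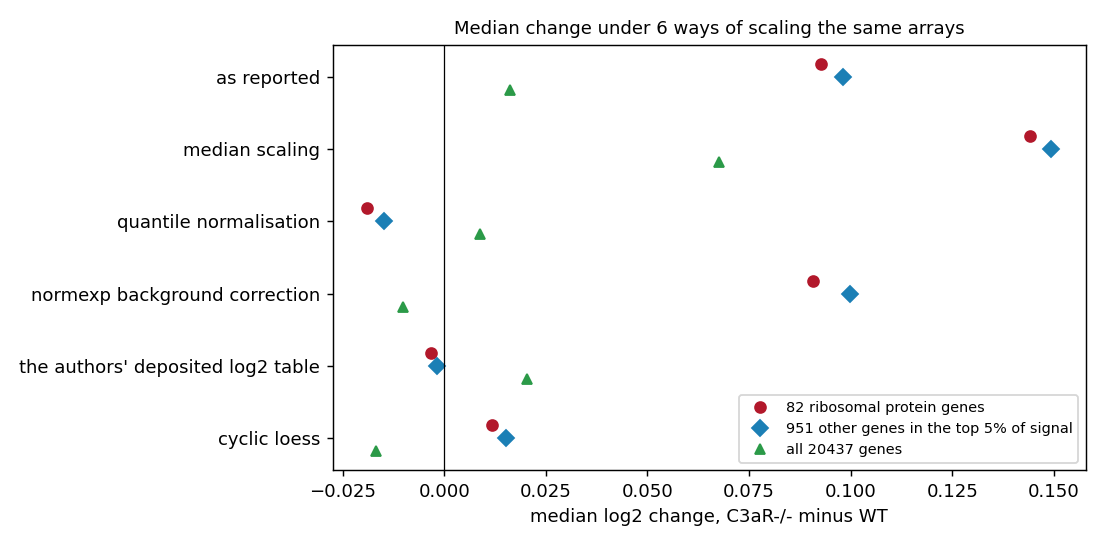
Median log2 change (x axis) of the 82 ribosomal protein genes, of 951 other genes in the top 5% of signal and of all 20437 genes, under 6 ways of scaling (rows). Circles and diamonds move together and lie on either side of 0 depending on the scaling.

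Single arrays stood apart. Set against each gene's mean over the 6 arrays, the median deviation of the members was 0.08, 0.02 and 0.04 on the C3aR-/- arrays and -0.05, 0.02 and -0.12 on the WT arrays. C3aR-/- replicate 1 was the highest of the 6 arrays for 50 of 82 members, and WT replicate 3 the lowest for 65. WT replicate 2 lay within the range of the C3aR-/- arrays by this measure and was the highest WT array for 73 members. Without WT replicate 3 the member median was 0.05 and 60 changes were positive. C3aR-/- replicate 1 also had 145 spots marked non-uniform by the scanner software, against 2 to 8 on the other arrays, and its part in the result was not tested; without it the member median was 0.08.

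**Figure D3:**
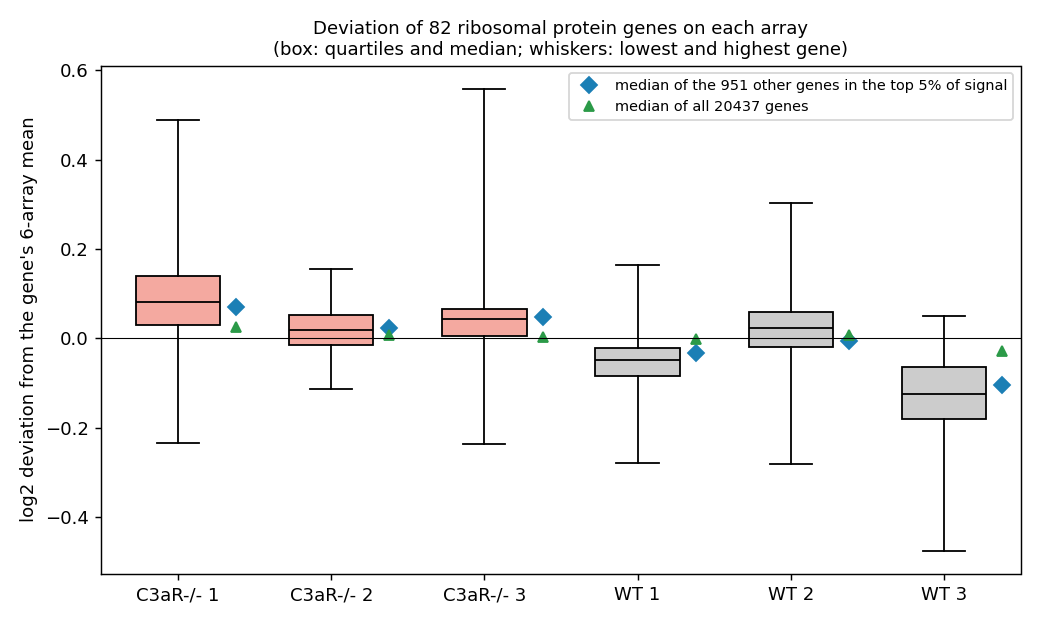
Log2 deviation of the 82 ribosomal protein genes from their 6-array means (y axis) on each array, C3aR-/- in red and WT in grey, with boxes at the quartiles and whiskers at the lowest and highest gene. Diamonds and triangles give the medians of other bright genes and of all genes. C3aR-/- replicate 1 lies highest at 0.08 and WT replicate 3 lowest at -0.12.

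The small-subunit proteins gave 1 called gene of 31, and their median change was 0.11, or -0.005 after quantile normalisation and -0.002 in the authors' deposited log2 table. Rps25, which lies in the head of the small subunit and is needed for internal initiation at some mRNAs, had levels of 6.01, 5.94 and 5.94 on C3aR-/- arrays and 5.66, 5.67 and 5.60 on WT arrays. The groups did not overlap, and the change of 0.33 (SE 0.057) was called by limma (adjusted p = 0.0226). Its dimmer probe, nearer the start of the transcript, had 3.45, 3.41 and 3.47 on C3aR-/- arrays and 3.53, 3.63 and 3.48 on WT arrays. That change was -0.10 and was not called, so the 2 probes of Rps25 differed in sign.

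Rps24, a protein of the body of the small subunit, had the highest change of all members but was not called. Its brightest probe read 6.80, 6.42 and 6.40 on C3aR-/- arrays and 6.15, 6.03 and 6.08 on WT arrays, a change of 0.45 (SE 0.12, limma adjusted p = 0.0599). C3aR-/- replicate 1 stood above the other arrays of its genotype. The 3 probes printed above are annotated to different Rps24 transcripts, whose 3′ ends are known to be alternatively spliced. The second read 4.40, 4.37 and 4.33 on C3aR-/- arrays and 4.23, 4.29 and 4.52 on WT arrays, a change of 0.02. The remaining probes had changes of -0.16 (the dimmest probe shown) and -0.03, and none of these 3 was called.

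Rpsa, which sits on the solvent side of the small subunit and also serves as a laminin receptor, read 6.48, 6.28 and 6.36 on C3aR-/- arrays and 6.15, 6.11 and 6.01 on WT arrays. Its arrays did not overlap, but the change of 0.29 was not called (limma adjusted p = 0.0586), and its dimmer probe had a change of 0.15. Rps6, whose phosphorylation is a common readout of mTOR signalling, read 5.78, 5.78 and 5.73 on C3aR-/- arrays and 5.54, 5.61 and 5.46 on WT arrays. Its change of 0.23 was not called (limma adjusted p = 0.0662) and was -0.03 at its dimmer probe.

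Among 43 large-subunit proteins 3 were called higher, with a median change of 0.09, or -0.02 both after quantile normalisation and in the authors' deposited log2 table. Rpl23 lies on the face of the large subunit that meets the small one, and like Rpl11 it can bind the p53 inhibitor Mdm2 when not built into ribosomes. It read 6.23, 6.08 and 6.12 on C3aR-/- arrays and 5.74, 5.82 and 5.80 on WT arrays, without overlap, a change of 0.36 (SE 0.067, limma adjusted p = 0.0258). Its dimmer probe read 5.82, 5.78 and 5.75 on C3aR-/- arrays and 5.74, 5.82 and 5.75 on WT arrays. There the groups overlapped and the change was 0.01.

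Rpl11, which forms a particle with 5S rRNA and Rpl5, had a single passing probe. It read 6.99, 6.90 and 6.93 on C3aR-/- arrays and 6.62, 6.71 and 6.51 on WT arrays, a change of 0.32 (SE 0.072, limma adjusted p = 0.0374). Its partner Rpl5 had a change of 0.12 (limma adjusted p = 0.22). Rpl15, a core protein of the large subunit, read 5.43, 5.50 and 5.47 on C3aR-/- arrays and 5.22, 5.28 and 5.16 on WT arrays. The change of 0.25 (SE 0.061) was called (limma adjusted p = 0.0474), and its second probe had a change of 0.21. Neither probe was called when tested over all probes (limma adjusted p = 0.0592 and 0.129).

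Rpl13a, a large-subunit protein also known for silencing of inflammatory mRNAs, read 5.28, 5.16 and 5.16 on C3aR-/- arrays and 4.75, 5.03 and 4.79 on WT arrays. Its change of 0.34 was not called (limma adjusted p = 0.0614). The lowest member was Rpl27, with 6.37, 6.26 and 6.28 on C3aR-/- arrays and 6.42, 6.49 and 6.42 on WT arrays. The arrays did not overlap, but the change of -0.14 was not called (limma adjusted p = 0.167), and its dimmer probe had a change of 0.13. Rpl27 was called lower after quantile normalisation, after cyclic loess and in the authors' deposited log2 table. Rpl27a, despite its name a protein of its own, read 5.95, 5.95 and 5.94 on C3aR-/- arrays and 5.97, 6.12 and 6.00 on WT arrays, a change of -0.08. Rpl12, at the base of the stalk, had a change of -0.06 at its brightest probe and of 0.34 at the next, which was called higher over all probes (limma adjusted p = 0.0458). Its dimmest probe had a change of -0.10. Rpl37 rested on 1 dim probe with levels of -4.42, -4.25 and -3.66 on C3aR-/- arrays and -4.23, -4.32 and -4.44 on WT arrays, and its 95% interval ran between -0.27 and 0.71, the widest of the 43.

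**Figure D4:**
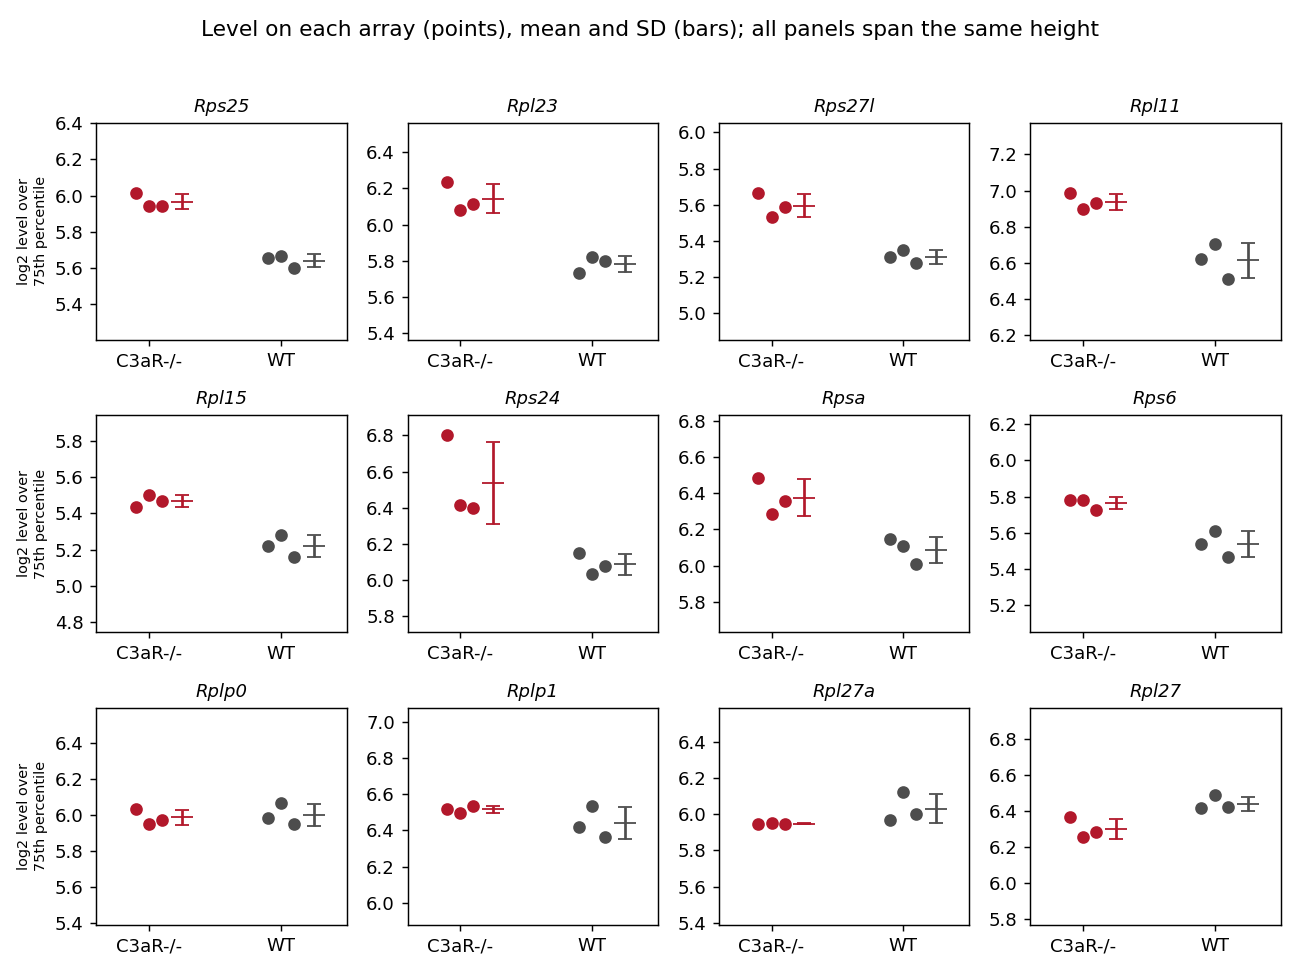
Level on each array (points; log2 over the array's 75th percentile, y axis) for 12 ribosomal protein genes, C3aR-/- left and WT right, with mean and SD beside them. The 5 called genes in the first 5 panels show no overlap, and Rplp0 in the third row does.

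The stalk proteins, which recruit the translation GTPases to the large subunit, were not called. Rplp0 read 6.03, 5.95 and 5.97 on C3aR-/- arrays and 5.98, 6.07 and 5.95 on WT arrays, a change of -0.01 with a 95% interval of -0.16 to 0.14. Rplp1 had a change of 0.07 and Rplp2 of 0.02. At these probes all 3 genes overlapped between the genotypes and none had an unadjusted limma p under 0.05. A second Rplp1 probe, nearly as bright, read 6.77, 6.47 and 6.60 on C3aR-/- arrays and 6.35, 6.41 and 6.26 on WT arrays. It had a change of 0.27 that did not pass over all probes (limma adjusted p = 0.123, unadjusted 0.0324). Their median change of 0.02 was -0.10 after quantile normalisation, -0.08 after cyclic loess and -0.11 in the authors' deposited log2 table.

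The paralogues, genes that resemble a standard ribosomal protein gene, gave 1 called gene of 5 tested. Rps27l, a paralogue of Rps27 that p53 can induce, read 5.66, 5.53 and 5.59 on C3aR-/- arrays and 5.31, 5.35 and 5.28 on WT arrays. It was called higher by 0.28 (SE 0.062, limma adjusted p = 0.0368), and its dimmer probe had a change of 0.19. Rps27 had a change of 0.13 and was not called, and no difference between the 2 genes was tested. The brightest Rps27 probe is placed by the array files on chromosome 9 while the gene is on chromosome 3. Of the tested members 2 had a brightest probe placed on another chromosome than the gene. Rpl22l1, a paralogue of Rpl22, read 4.34, 4.23 and 4.29 on C3aR-/- arrays and 3.93, 4.19 and 3.95 on WT arrays, a change of 0.27 that was not called (limma adjusted p = 0.101), and Rpl22 had a change of 0.05. Rpl3l, known as a muscle form of Rpl3, had levels of -1.67, -1.42 and -0.91 on C3aR-/- arrays and -1.58, -1.14 and -1.91 on WT arrays. The spread within genotypes was larger than its change of 0.21 (SE 0.26), and Rpl3 had a change of 0.04. Rpl7l1 had a change of 0.05 beside 0.09 for Rpl7, and Rps4l one of -0.05 beside 0.12 for Rps4x. The Rps4l probe is annotated to a RefSeq transcript classed as non-coding. A dimmer Rps4x probe had a change of 0.44 and a dimmer Rpl7 probe one of 0.25, both called over all probes, while the dimmest Rpl7 probe had a change of -0.05. No probe of a paralogue shared a run of more than 7 bases with a probe of its counterpart. The Rpl22l1 probe, however, shared a run of 54 bases with a probe of another name, Gm15421.

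The probes of a gene often disagreed by as much as the changes themselves. Of 172 member probes that passed, 90 were not the brightest of their gene. They had a median change of 0.10, 62 of them were positive, and 6 were called higher (6.67%) and 1 lower (1.11%) over the 30930 probes. Of all probes 6.18% were called higher and 5.49% lower, so the share called higher was near the background. Of 58 members with several probes, 32 had changes that were all positive, 3 all negative and 23 of mixed sign. Overlapping probes differed too. In 14 genes a pair of probes shared a run of at least 20 bases, 3 of these pairs had opposite signs, and their changes lay 0.07 apart at the median and up to 0.41 apart (Rpl39). The Rpl35 pair shared 40 bases and had changes of 0.23 at the brighter and 0.60 at the dimmer probe, where WT replicate 3 read 4.90 against 5.65 and 5.71 on the other WT arrays. The dimmest Rps28 probe had a change of -3.63 that was not called, against -0.0003 at the brightest. It read -5.05 on C3aR-/- replicate 1 and 6.01 to 6.20 on the other arrays. For 16 members the brightest probe shared at least 30 bases with a probe of another name, among them Rpl15, Rpl22l1, Rps24, Rpsa and Rps6. RNA from such copies cannot be told apart there.

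Start sites are shown for the 5 called members, for Rps24 with the highest change and for Rpl27a and Rpl27 with low ones, to set the TOP tract known for this class of mRNA beside the changes. Each line gives 20 bases before to 20 after a RefSeq start (GRCm38.p6), with runs of at least 8 bases of C and T in capitals. Such a run may lie wholly before the listed start, as those of Rps25 and Rps27l do. The Rps25 run also begins at the edge of its window. Whether a run is part of the mRNA was not tested. RefSeq lists a second start for Rps27l and for Rps24, which has no such run in its window and is not shown.
Rps25, chr9:44407694-44407733, plus strand: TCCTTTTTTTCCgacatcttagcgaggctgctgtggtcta
Rpl11, chr4:136053374-136053413, minus strand: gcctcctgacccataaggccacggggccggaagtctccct
Rpl15, chr14:18270967-18271006, minus strand: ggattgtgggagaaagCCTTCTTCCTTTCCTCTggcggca
Rps27l, chr9:66946066-66946105, plus strand: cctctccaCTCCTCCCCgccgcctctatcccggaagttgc
Rps24, chr14:24490658-24490697, plus strand: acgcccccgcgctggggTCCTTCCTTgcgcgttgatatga
Rpl27a, chr7:109519175-109519214, plus strand: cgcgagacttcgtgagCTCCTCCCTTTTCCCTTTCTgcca
Rpl23, chr11:97782420-97782459, minus strand: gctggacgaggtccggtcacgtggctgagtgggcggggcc
Rpl27, chr11:101442225-101442264, plus strand: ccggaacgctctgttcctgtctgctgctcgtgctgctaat

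RefSeq promoters were found for 63 of the 84 members. In the 40-base window, searched on the transcribed strand, a run of at least 8 bases of C and T was present for 30 of them (47.6%), against 18.4% of 27025 genes with a promoter, 18.8% of mitochondrial ribosomal protein genes and 18.8% of proteasome genes. The letters CCGGAAG, the core bound by ETS factors such as GABP, were present on either strand of the 300-base promoter for 26 members (41.3%), against 9.93% of all genes, 37.7% of mitochondrial ribosomal protein genes and 31.2% of proteasome genes. The 30 tested members with the C and T run had a median change of 0.13 (27 positive) and the 31 tested members without it 0.09 (26 positive). With CCGGAAG the median was 0.13 in 25 members, and without it 0.10 in 36. The genes printed were picked by their changes, so they do not test a link with the run. Of these, Rpl27a has the longest run shown, 20 bases, with a negative change. Rps25, Rpl15, Rps27l and Rps24 also have a run, with positive changes. Rpl11 and Rpl23 have none within the window and positive changes, and Rpl27 has none and a negative change. The Rpl11 window ends in a shorter stretch of C and T that may run on past its edge.

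Ribosomal protein genes whose names do not match the rule were read alongside. Of 4 such genes 0 were called by limma, with 2 at an unadjusted p under 0.05, and their median change was 0.14, or 0.04 after quantile normalisation and 0.07 both after cyclic loess and in the authors' deposited log2 table. With median scaling and after normexp 1 was called higher. Gnb2l1, the scaffold protein RACK1 on the small subunit, had the smallest p among them, at a change of 0.38 (limma adjusted p = 0.0537), with 6.62, 6.46 and 6.49 on C3aR-/- arrays and 6.27, 5.97 and 6.19 on WT arrays.

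Of 20 translation factors and other genes with TOP mRNAs, 2 were called higher (10%, against 7.09% of all genes) and 0 lower. Their median change was 0.07. With median scaling 3 were called higher, and 1 after quantile normalisation and in the authors' deposited log2 table. Eif4b, a cofactor of the helicase that unwinds mRNA 5′ ends, was higher by 0.38 (limma adjusted p = 0.0269), with 4.07, 3.88 and 3.89 on C3aR-/- arrays and 3.52, 3.58 and 3.59 on WT arrays. Naca, part of the complex that covers nascent chains, was higher by 0.24 (limma adjusted p = 0.0447), though not over all probes. Of 23 other factors of initiation, elongation and release 0 were called higher and 3 lower (13%, against 7.33% of all genes). Eif4e, the cap-binding protein, read 1.82, 1.94 and 1.98 on C3aR-/- arrays and 2.40, 2.39 and 2.30 on WT arrays and fell by 0.45 (limma adjusted p = 0.0165). Its 2 dimmer probes had positive changes of 0.02 and 0.998 that were not called. The helicase Eif4a1 fell by 0.27 (limma adjusted p = 0.0323) and the start-site scanning factor Eif1ax by 0.30 (limma adjusted p = 0.0446).

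Genes of the machinery that builds ribosomes were called in both directions. Of 46 genes of ribosome biogenesis and RNA polymerase I, 2 were called higher and 7 lower (19.6% in either direction, against 14.4% of all genes), with a median change of -0.04. With median scaling 3 were called higher and 2 lower and the median was 0.01. Brix1, a large-subunit assembly factor, read 1.76, 1.81 and 1.79 on C3aR-/- arrays and 2.17, 2.22 and 2.12 on WT arrays and fell by 0.38 (limma adjusted p = 0.0158). Tsr1, a late small-subunit assembly factor, fell by 0.37 at its brightest probe (limma adjusted p = 0.0224) but had positive changes of 0.14 and 0.22 at its dimmer probes. Ltv1, another small-subunit assembly factor, fell by 0.33 (limma adjusted p = 0.0258), and its dimmer probe had a change of -0.36. All 3 stayed negative under the 5 other scalings, between -0.39 and -0.28.

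Among 28 regulators of ribosomal protein transcription and translation 2 were called higher and 2 lower, 14.3% in all, which is near the 14.4% of all genes. Gabpa, the DNA-binding subunit of GABP, read -0.02, -0.13 and 0.03 on C3aR-/- arrays and 0.35, 0.45 and 0.41 on WT arrays and fell by 0.44 (limma adjusted p = 0.0168). Its dimmer probes had changes of 0.28 and 0.09, so the probes differed in sign. Deptor, an mTOR inhibitor, was higher by 0.34 (limma adjusted p = 0.0301), and Eif4ebp2, an inhibitor of the cap-binding protein, by 0.36 (limma adjusted p = 0.0307). Myc and Sesn2, named after their values were seen, had larger changes of 1.52 and 0.91 that were not called (limma adjusted p = 0.0574 and 0.0565). Myc, a transcription factor that drives ribosome production, read 0.07, -1.31 and 0.25 on C3aR-/- arrays and -1.84, -1.87 and -1.84 on WT arrays, so 1 C3aR-/- array lay well below the others of its genotype.

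Of 12 importers and chaperones of ribosomal proteins, 0 were called higher and 1 lower (8.33%, against 7.33% of all genes). This was Ipo5, which carries ribosomal proteins into the nucleus. It fell by 0.27 (limma adjusted p = 0.0303), while one dimmer probe had a change of 0.25. Of 10 genes of ribosome rescue none was called by limma, with 2 higher and 2 lower at an unadjusted p under 0.05. The smallest p among them was that of Ascc3, which splits collided ribosomes, at a change of -0.32 (limma adjusted p = 0.0602).

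**Figure D5:**
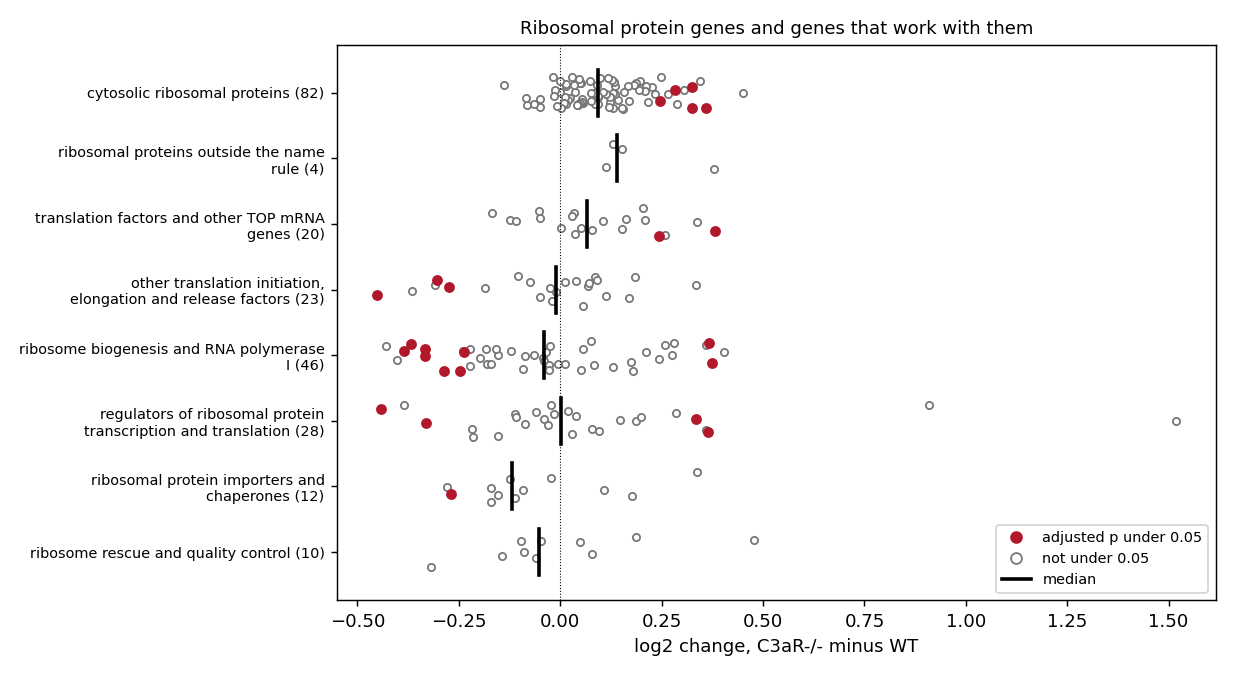
Log2 change (C3aR-/- minus WT, x axis) of each tested gene of the ribosomal protein group and of 7 lists of partner genes (rows, number tested in brackets). Filled points have an adjusted p under 0.05 and bars are medians. The called ribosomal protein genes lie to the right of 0, while, at this scaling, 7 of the 9 called biogenesis genes lie to the left.

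For comparison, 5 of 76 mitochondrial ribosomal protein genes were called higher (6.58%) and 3 lower (3.95%). Their median change was -0.02 (0.04 with median scaling). Of 38 proteasome subunit genes 1 was called in each direction (2.63%), with a median of -0.03 (0.02 with median scaling). The shares of all genes were 7.09% higher and 7.33% lower. No difference between these 2 gene groups and the cytosolic ribosomal protein genes was tested.

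None of the 5 calls held without every array. With any 1 of the 6 arrays left out, limma called 0 members higher and 0 lower. In these fits 3.64% to 8.37% of all genes were called, against 14.4% with every array. At an unadjusted limma p under 0.05, 9 to 22 members were higher and 0 to 1 lower, with no share over all genes worked out. The changes of the 5 genes stayed positive throughout: Rpl11 lay between 0.27 and 0.37, Rpl15 between 0.22 and 0.28, Rpl23 between 0.31 and 0.39, Rps25 between 0.30 and 0.34, and Rps27l between 0.25 and 0.31. Over 5 other scalings the call held in 4 for Rpl23, Rps25 and Rps27l, which lost it in the authors' deposited log2 table, in 3 for Rpl11 and in 1, normexp, for Rpl15. Among the partner genes named above, the call held in 5 of the 6 such fits for Gabpa, in 4 for Eif4e, in 3 for Brix1, in 1 each for Eif4b, Ltv1, Tsr1 and Eif4ebp2, and in 0 for Eif4a1, Eif1ax, Naca, Deptor and Ipo5. Over the same 5 scalings the Naca call held in 2, those of Eif4a1, Eif1ax, Tsr1, Deptor and Ipo5 in 4, and the others in 5.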

How the data were processed

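Per the submitters' processing notes and the file headers, the authors read 1-colour arrays with Agilent Feature Extraction 10.7.1.1, and deposited a background-subtracted intensity for each spot. Each array held 59305 transcript spots, 56.5% to 59.3% of them well above background and none saturated. The authors also deposited a log2 table whose columns share sorted values to within 0.000903 and a median of 5.38; its scale was read from correlations of 0.995 to 0.996 with the arrays, its centring is unknown, and it served as an alternative.

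Here log2 intensity minus each array's 75th percentile was used. Outlier spots were dropped, which removed 106 probes, spots of a probe were averaged, and 30930 of 56499 probes passed (well above background on all 3 arrays of a genotype). The brightest probe stood for a gene. C3aR-/- and WT were compared with limma 3.58.1 in R 4.3.3 (two-sided, Benjamini-Hochberg over all genes, threshold 0.05), after a test on simulated data. That test set a bar only for the false share and for recovery of changes far larger than those of the called members. It therefore says nothing of recovery at their size. The number of arrays limits the precision.

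Members and lists were chosen with earlier results of these data known. Named were all called members, the 5 highest and 5 lowest, the stalk genes, paralogues with their counterparts, Rps6, Rpsa and up to 3 called genes of each list (else the smallest p), with further probes where they disagreed; 2 genes that the rule or lists hold are not reported here by name. Alternatives covered scaling, background, filter, probe choice, symbols, eBayes options, a replicate block and each array left out. Same-numbered arrays did not deviate together (r of 0.04, -0.03 and -0.07), so numbers pair nothing. Promoters and symbols came from RefSeq (GRCm38.p6), coordinates of probes from the array files.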

Additional observations from a re-analysis of the deposited data

How the results depend on the processing

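Of all genes 2949 were called as reported, 936 without a filter on dim probes, 1940 when every probe of a gene had to be called in one direction, 659 with the replicate number as a block and 744 to 1711 with 1 array left out. Members called higher numbered 5 as reported, 9 with normexp, 11 with eBayes trend and robust and 3 with quantile normalisation. They numbered 1 with the mean of a gene's probes and 1 with every probe required. The number was 0 without the filter, with the replicate block, in the authors' deposited log2 table and with any 1 array left out (0 to 0). Over all genes 1450 were called higher as reported, 1480 with normexp, 1899 with eBayes trend and robust and 1618 with quantile normalisation. The counts were 1198 with the mean of a gene's probes, 943 with every probe required, 389 without the filter and 244 with the replicate block. They were 1335 in the deposited table and 272 to 665 with 1 array left out. At an unadjusted p under 0.05, 14 members were higher and 2 lower without the filter, and 12 and 0 with the replicate block. These counts were 8 and 4 in the deposited table, and 9 to 22 and 0 to 1 with 1 array left out. No share over all genes was worked out for these settings. As reported, 18.1% of all genes were higher and 15.3% lower at that p. Members called lower numbered 0 as reported and 1 (Rpl27) with quantile normalisation, in the deposited table and with cyclic loess, an alternative chosen after seeing the data. The member median of 0.09 became -0.019 with quantile normalisation, -0.0033 in the deposited table and 0.0117 with cyclic loess, and 0.0513 to 0.135 with 1 array left out; the cause was not tested. Median scaling turned the split of higher and lower calls over all genes to 1838 and 1061, against 1450 and 1499 as reported. No called member changed sign under any of the 18 alternatives. The filters, updated symbols, eBayes options and replicate block left the changes of the called members as they were, so they tested no sign. The dimmer Rps25 probe had a change of -0.10 on its own, which the median over its probes hides. Slide and genotype cannot be told apart.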
